A study of Mus musculus with 12 samples.

Results

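The genes described here are the small nuclear and small nucleolar RNA genes of the mouse liver. They are the genes that the annotation classes as snRNA, snoRNA, or scaRNA, and they were chosen by their counts, as those with at least 10 counts in at least 3 of the 12 libraries. This left 137 of the 2594 genes of these classes, which sit among the 40551 genes of the files. They comprised 21 of 1172 snRNA genes, 106 of 1386 snoRNA genes, and 10 of 36 scaRNA genes. No library reached 10 counts for 2434 of the 2594 genes, and 2056 had no count in any library. The minimum was met in exactly 3 libraries by 8 genes. Among those just inside, Snora62 had its highest values at 25, 13, and 10 counts, whereas Gm24698, just outside with 2 libraries at the minimum, reached 30, 13, and 9 counts.

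The data were total RNA-seq libraries of 12 mouse livers, 3 of each of 4 genotypes. WT livers were compared with Mcl1 KO livers (Mcl1Δhep in the study), in which Cre recombinase driven by the albumin promoter deletes floxed Mcl1, an antiapoptotic gene, in hepatocytes. The deletion is therefore limited to the cells in which the albumin promoter is active. Mcl1 Sting1 DKO livers (Mcl1Δhep Sting1-/-) also carried the knockout of Sting1, the adaptor of cytosolic DNA sensing, and Sting1 KO livers (Sting1-/-) carried that knockout alone. The transcriptomes of WT and Mcl1 KO livers are described for mice aged 2 months. Mice of these genotypes and of the Mcl1 Sting1 DKO were examined at either 2 or 12 months, without an age tied to the Mcl1 Sting1 DKO libraries, and no age was found for the Sting1 KO livers in the sources used here. All 12 were bulk livers, in which fewer cells of a type and less RNA per cell cannot be told apart. Between 28826367 and 45266387 reads were counted on genes per library, and values below are CPM, counts per 1000000 counts of a library whose total is scaled with the TMM factor of edgeR, unless called unscaled CPM, for which the total is not scaled.

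The deleted gene Mcl1 had 90.2 to 104 CPM in WT, 25.0 to 34.0 in Mcl1 KO, 18.1 to 26.0 in Mcl1 Sting1 DKO, and 77.0 to 90.1 in Sting1 KO libraries, so it separated the libraries by their Mcl1 labels. Sting1 had 2.11 to 2.53 CPM in WT, at least 3.67 in each Mcl1 KO library, 1.90 to 2.53 in Mcl1 Sting1 DKO, and 1.16 to 2.70 CPM in Sting1 KO libraries. The Mcl1 Sting1 DKO libraries lay below all Mcl1 KO libraries, with a log2 fold change of −1.07 (SE 0.29, adjusted p = 0.13), whereas the Sting1 KO and WT libraries overlapped. The counts thus did not separate Sting1 KO from WT livers, the allele was not given in the sources used here, and these livers are referred to by their labels. RNA counts do not measure the protein. For Sting1-/- mice, the paper reports the knockout by Western blot. It also reports that their splenocytes did not phosphorylate the transcription factor IRF3 after a drug that activates STING. The summed hepatocyte markers lay between 91337 and 154328 CPM in all libraries, and all 8 were counted. Mcl1 KO library 3 stood apart by 1395 CPM on 7 skeletal muscle markers, against at most 7.80 CPM elsewhere, and WT libraries 2 and 3 and Mcl1 Sting1 DKO library 1 expressed Y-linked genes at 141 to 157 CPM, against at most 0.19 CPM in the others. For the small RNA genes themselves, Mcl1 KO library 1 stood apart from the other two Mcl1 KO libraries, and results that rest on it are given with and without it.

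Small nuclear RNAs form the RNA cores of the spliceosome. U1 pairs with the 5′ splice site and U2 with the branch point of introns, U4, U5, and U6 complete the major spliceosome, and U11, U12, U4atac, and U6atac serve the minor spliceosome, which removes a rare class of introns. U7 belongs to the machinery that cuts the 3′ ends of replication-dependent histone mRNAs. Box C/D small nucleolar RNAs guide 2′-O-methylation and box H/ACA small nucleolar RNAs guide pseudouridylation of ribosomal and spliceosomal RNA, whereas U3, U8, and U17 are needed for the cleavage of ribosomal RNA precursors. Small Cajal body RNAs (scaRNAs) guide the modification of snRNAs. Most snoRNAs of vertebrates are cut out of the introns of host genes, whereas the major snRNAs are transcribed from genes of their own.

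The snRNA sequences below are shown for the U1 and U2 copies with the highest levels, a second U2 copy, the minor spliceosomal U12, and a gene of a pair whose family the annotation does not name. They were taken from GENCODE vM39 transcripts on GRCm39, written 5′ to 3′ as DNA. Capitals mark the stretch that pairs with the 5′ splice site in Gm22513, the stretch that pairs with the branch point in Gm25939 and Gm22973, and a match to the Sm-type binding site AATTTTTG in Rnu12 and Gm24265. Gm22513 was 99.4% identical to Rnu1a1, an annotated U1 gene. Gm25939 was 98.4% and Gm22973 was 95.3% identical to Rnu2-10, an annotated U2 gene, and the pair differed from each other at 9 positions of 191.
Gm22513 (U1 copy, chr12:54743567-54743730, plus strand): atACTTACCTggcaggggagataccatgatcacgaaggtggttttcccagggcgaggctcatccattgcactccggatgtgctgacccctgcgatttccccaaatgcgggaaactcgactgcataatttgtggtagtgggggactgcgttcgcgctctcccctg
Gm25939 (U2 copy, chr1:72294167-72294357, plus strand): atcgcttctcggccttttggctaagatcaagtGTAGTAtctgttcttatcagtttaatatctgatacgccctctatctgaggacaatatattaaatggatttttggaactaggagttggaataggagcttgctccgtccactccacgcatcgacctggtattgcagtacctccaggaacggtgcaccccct
Gm22973 (U2 copy, chr12:59087121-59087311, plus strand): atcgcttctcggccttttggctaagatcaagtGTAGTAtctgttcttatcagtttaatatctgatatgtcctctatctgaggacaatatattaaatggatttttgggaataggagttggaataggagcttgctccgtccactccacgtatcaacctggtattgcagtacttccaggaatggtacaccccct
Rnu12 (U12, chr15:83033845-83033995, plus strand): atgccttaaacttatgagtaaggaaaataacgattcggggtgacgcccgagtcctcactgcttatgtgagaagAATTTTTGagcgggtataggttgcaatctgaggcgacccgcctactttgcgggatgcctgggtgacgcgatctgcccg
Gm24265 (snRNA of unnamed family, chr5:115627518-115627658, plus strand): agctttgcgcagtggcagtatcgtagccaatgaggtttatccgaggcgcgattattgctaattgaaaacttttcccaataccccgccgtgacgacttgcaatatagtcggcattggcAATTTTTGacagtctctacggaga

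The snoRNA sequences below include those of the U3 and U8 genes, C/D genes used in the processing of ribosomal RNA. They also include another C/D gene, whose CPM varied less than 3-fold over the 12 libraries, and 2 abundant H/ACA genes that varied more. Capitals mark a match to the box C core TGATGA and to the box D core CTGA in the C/D genes and, in the H/ACA genes, the ACA trinucleotide 3 bases before the 3′ end.
Snord3a (U3, chr10:40134463-40134675, plus strand): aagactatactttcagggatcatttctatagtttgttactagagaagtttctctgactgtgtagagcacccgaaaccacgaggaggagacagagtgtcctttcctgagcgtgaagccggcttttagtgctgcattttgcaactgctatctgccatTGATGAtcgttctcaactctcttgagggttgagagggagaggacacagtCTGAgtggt
Snord118 (U8, chr11:68964253-68964387, plus strand): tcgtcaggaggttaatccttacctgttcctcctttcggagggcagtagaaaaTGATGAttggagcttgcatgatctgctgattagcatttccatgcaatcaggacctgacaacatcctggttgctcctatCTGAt
Snord14c (box C/D, chr9:40714879-40714964, plus strand): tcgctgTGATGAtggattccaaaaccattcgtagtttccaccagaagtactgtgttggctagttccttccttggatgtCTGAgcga
Snora73a (box H/ACA, chr4:132080086-132080290, minus strand): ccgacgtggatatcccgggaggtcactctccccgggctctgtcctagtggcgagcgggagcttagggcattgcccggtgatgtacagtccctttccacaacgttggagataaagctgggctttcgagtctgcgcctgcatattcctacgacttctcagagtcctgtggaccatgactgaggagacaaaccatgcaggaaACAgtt
Snora78 (box H/ACA, chr17:24938650-24938777, minus strand): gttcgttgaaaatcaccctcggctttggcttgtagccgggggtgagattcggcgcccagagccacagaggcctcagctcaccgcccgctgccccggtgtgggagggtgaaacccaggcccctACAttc

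These boxes were searched for on the given strand in all 137 genes, as TGATGA in the first 20 bases together with CTGA in the last 20, and as ACA in the 3 bases that stand 3 before the end. Of the 2594 genes of the 3 classes, 11.7% held the C and D boxes and 9.98% held the ACA box by this search, and of the 137 genes, 27 held the C and D boxes and 59 the ACA box, with 1 gene in both counts. The C and D boxes were found in 14 of 24 genes with a Snord name and in 0 of 29 with a Snora name. The ACA box was found in 23 of the 29 and in 0 of the 24. Of 51 snoRNA genes that have only a Gm name, 31 held the ACA box, 6 the C and D boxes, and 1 both. A missing match says only that these letters were not in these windows, as for Snord3a and Snord118, in which TGATGA stands further inside. The genes were 62 to 414 bases long with a median of 134, and the scaRNA class, to which Scarna9 and Scarna10 were added by name, held the longest, Scarna2.

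The share of all counts on the 137 genes differed widely between livers. It was 0.0199%, 0.0255%, and 0.0649% in WT libraries 1 to 3, with a mean of 0.0367 ± 0.0245 (SD, n = 3). In Mcl1 KO libraries 1 to 3, it was 0.0318%, 0.385%, and 0.216%, with a mean of 0.211 ± 0.177 (SD, n = 3). Mcl1 KO library 1 lay within the WT range, and the other two lay above every other library. The Mcl1 Sting1 DKO libraries had 0.119%, 0.0943%, and 0.0908%, with a mean of 0.101 ± 0.0155 (SD, n = 3). The Sting1 KO libraries had 0.116%, 0.108%, and 0.0931%, with a mean of 0.106 ± 0.0114 (SD, n = 3). Both groups lay above the 3 WT libraries and between the lowest and the other Mcl1 KO libraries, and they overlapped each other. The shares are descriptions without a test, since 3 libraries against 3 cannot give an exact two-sided permutation p below 0.1.

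The classes did not scale alike. The snRNA genes had 22.5, 39.0, and 118 unscaled CPM in WT, 36.3, 1378, and 852 in Mcl1 KO, 397, 311, and 271 in Mcl1 Sting1 DKO, and 387, 337, and 231 in Sting1 KO libraries. Their part of the 137 genes' counts was 11.3% to 18.2% in WT libraries and 11.4% in Mcl1 KO library 1, and 24.8% to 39.5% in the other libraries. The scaRNA genes had 89.9, 86.6, and 144 unscaled CPM in WT, 127, 798, and 501 in Mcl1 KO, 242, 211, and 227 in Mcl1 Sting1 DKO, and 189, 212, and 274 in Sting1 KO libraries. They held 45.3% of the genes' counts in WT library 1 but 16.3% in Sting1 KO library 1. The C/D genes ranged from 11.8 unscaled CPM in WT library 1 to 319 in Mcl1 KO library 2, and the H/ACA genes ranged from 27.9 to 833 in the same libraries. The snoRNA genes with Gm names ranged from 46.4 to 522, again between these libraries.

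**Figure D1:**
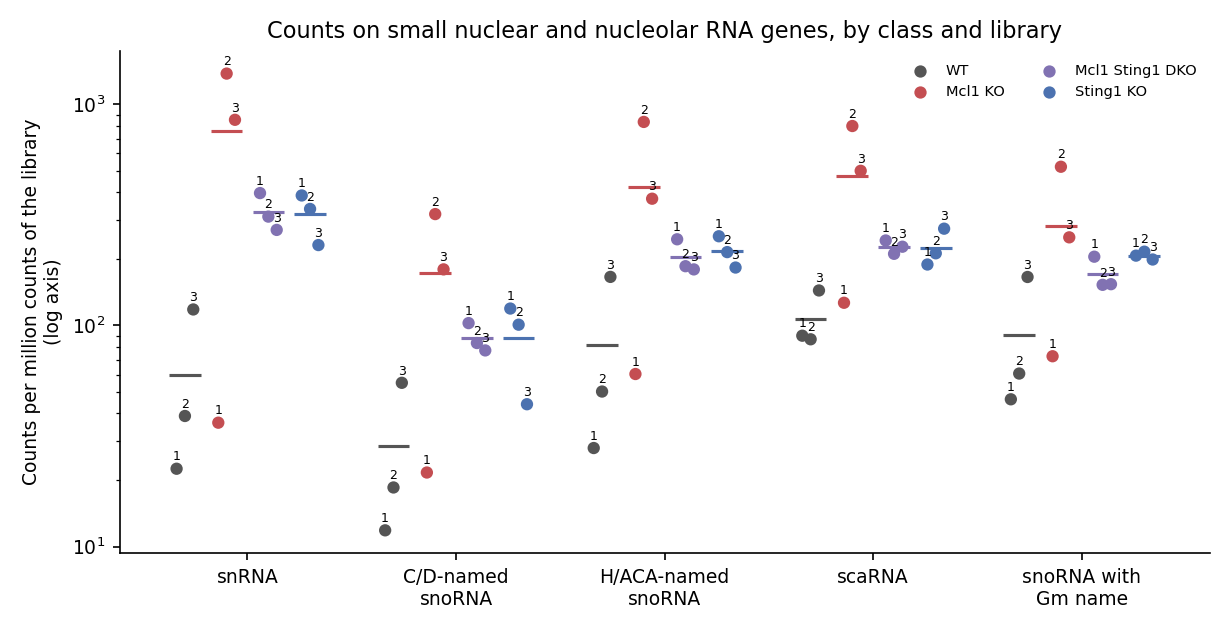
Unscaled CPM (log axis) on the genes of each class, with 1 point per library, its library number above it, and a bar at the mean of the 3 libraries of a genotype. In every class, Mcl1 KO libraries 2 and 3 lie above the WT libraries and library 1 lies within or near them, and the snRNA genes span the widest range, from 22.5 to 1378.

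A few genes held most of the counts, since 20 of the 137 had 81.2% of them. A mean of at least 10 CPM over the 12 libraries was reached by 22 genes and a mean of at least 1 CPM by 61. Per kilobase of gene length, the highest mean level was that of the U1 copy Gm22513 at 1058 CPM per kb, followed by Snora73a at 517, Scarna10 at 342, the scaRNA Gm22442 at 341, and the U2 copy Gm25939 at 326 CPM per kb. These are levels counted on single annotated copies. Another small RNA gene at least 95% identical to it was found for 44 of the 137 genes, among them 19 for Gm22513 and 12 for Gm25939, and how reads that match several copies were assigned was not given in the sources used here. A value for a U1 or U2 copy can therefore include reads of other copies.

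Among the snRNAs, the U1 copy Gm22513 (ENSMUSG00000119895) had 7.78, 16.2, and 54.7 CPM in WT libraries, 13.3, 596, and 417 in Mcl1 KO, 179, 134, and 151 in Mcl1 Sting1 DKO, and 221, 169, and 124 in Sting1 KO libraries. The WT and Mcl1 KO libraries overlapped, through Mcl1 KO library 1 alone. In the quasi-likelihood test of edgeR over 15070 genes, its log2 fold change between Mcl1 KO and WT was 3.71 (SE 1.02, adjusted p = 0.027). The second U1 gene with enough counts, Gm22068, lies in an intron of Tex14 and had 0.26 to 0.47 CPM in WT and 0.70 to 1.13 CPM in Mcl1 KO libraries.

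The U2 copy Gm25939 (ENSMUSG00000118790) had 4.38, 9.22, and 25.5 CPM in WT, 5.77, 199, and 138 in Mcl1 KO, 75.8, 63.5, and 45.9 in Mcl1 Sting1 DKO, and 77.8, 71.7, and 30.8 in Sting1 KO libraries. Its log2 fold change between Mcl1 KO and WT was 3.14 (SE 0.96, adjusted p = 0.039). The U2 copy Gm22973 (ENSMUSG00000065232) had 0.40, 0.98, and 2.54 CPM in WT, 0.77, 52.8, and 48.2 in Mcl1 KO, 22.6, 19.3, and 14.1 in Mcl1 Sting1 DKO, and 18.2, 13.1, and 2.27 in Sting1 KO libraries. Sting1 KO library 3 was thus within the WT range for Gm22973 but above it for Gm25939. The U2 copies Gm25360 and Gm26316 had log2 fold changes of 4.18 (SE 1.05) and 5.96 (SE 1.38) between Mcl1 KO and WT, and both passed the test, Gm26316 from at most 0.10 CPM in WT libraries to 6.52 and 5.22 CPM in Mcl1 KO libraries 2 and 3. Of the 8 U2 copies tested, 4 rose in Mcl1 KO livers, where 20.2% of all tested genes were called in either direction.

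The unnamed pair Gm24265 and Gm24407, which lie within 1 kilobase of each other on chromosome 5 and are 98.6% identical, moved together. No gene of the major spliceosomal U4 was among the named genes they were compared with, so a U4 family could not be assigned. Gm24265 had 4.49, 5.10, and 20.3 CPM in WT, 5.83, 175, and 82.0 in Mcl1 KO, 42.8, 29.4, and 27.7 in Mcl1 Sting1 DKO, and 41.5, 44.6, and 36.5 in Sting1 KO libraries. Here Sting1 KO library 3 lay near the other two of its genotype, unlike for the U2 copies Gm22973 and Gm25939. The log2 fold changes between Mcl1 KO and WT were 3.14 (SE 0.90) for Gm24265 and 3.18 (SE 0.94) for Gm24407, with adjusted p = 0.031 and 0.034.

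The minor spliceosomal RNAs were counted at far lower levels. Rnu12 (U12) had 0.06 to 0.17 CPM in WT, 0.12, 3.03, and 1.58 in Mcl1 KO, 2.44, 1.36, and 1.42 in Mcl1 Sting1 DKO, and 2.01, 1.06, and 0.19 in Sting1 KO libraries, and its log2 fold change between Mcl1 KO and WT was 3.80 (SE 1.10, adjusted p = 0.031). Rnu11 (U11) had 0.18 to 0.36 CPM in WT and 0.52, 2.54, and 1.26 CPM in Mcl1 KO libraries, so that all 3 Mcl1 KO libraries lay above WT, with a log2 fold change of 2.52 (SE 0.60, adjusted p = 0.015). Rnu4atac (U4atac), which overlaps an exon of the noncoding gene 2900060B14Rik, had 0.16, 0.39, and 0.50 CPM in WT and 0.41, 1.53, and 0.82 in Mcl1 KO libraries, which overlap, with a log2 fold change of 1.41 (SE 0.54, adjusted p = 0.081). Rnu7 (U7) had 3 to 19 counts per library, and its log2 fold change between Mcl1 KO and WT was −0.22 (SE 0.69, adjusted p = 0.84). Histone genes summed by name together had 519 to 588 unscaled CPM in WT and 816, 1495, and 1226 in Mcl1 KO libraries. The names take in histone variants that are not replication-dependent, so the sum is not one of U7 targets alone. The U5 copy Gm25099 had 0.08 to 0.20 CPM in WT and 0.27, 0.98, and 0.51 in Mcl1 KO libraries, but 1.70, 2.46, and 1.75 in Mcl1 Sting1 DKO libraries. All 3 Mcl1 Sting1 DKO libraries lay above all 3 Mcl1 KO libraries, with a log2 fold change of 1.78 (SE 0.58, adjusted p = 0.15).

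**Figure D2:**
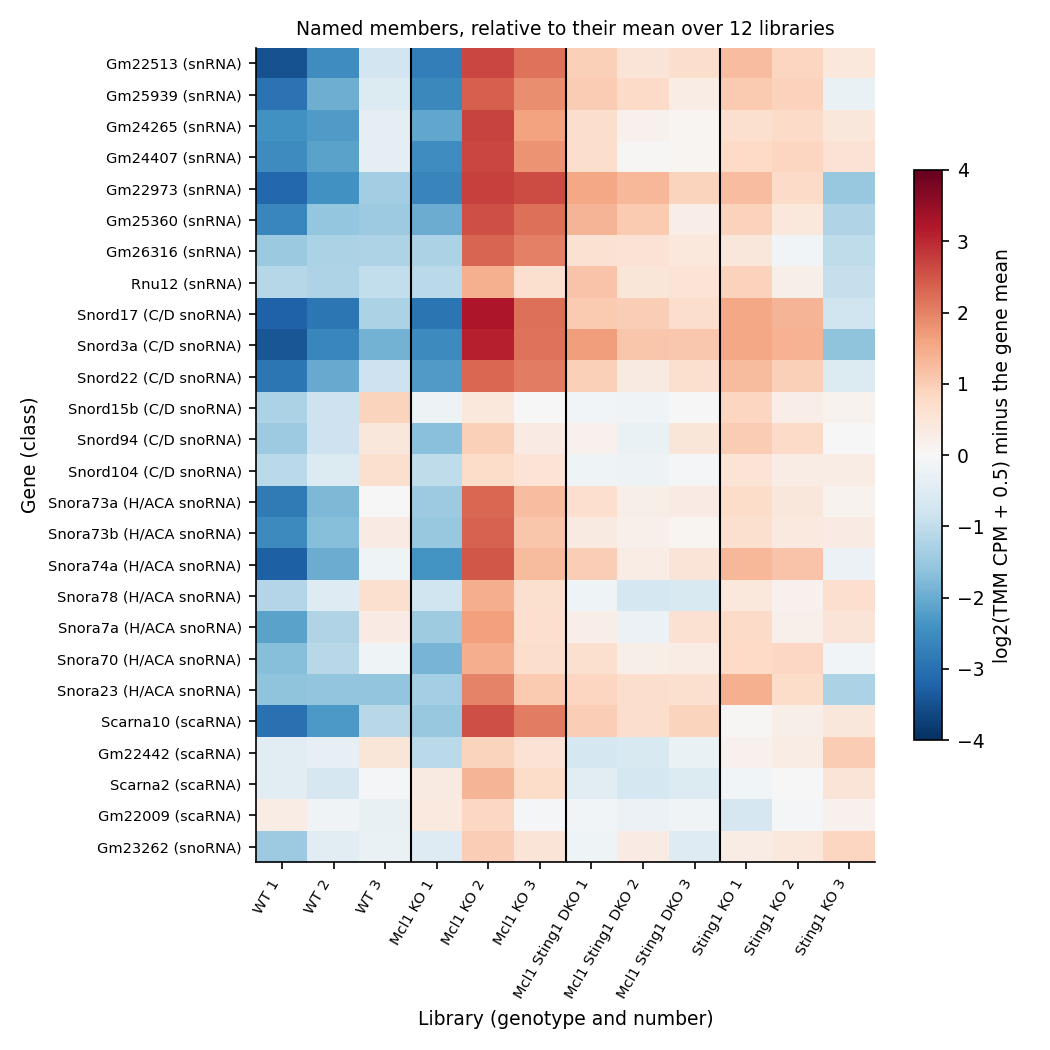
Levels of 26 named genes in the 12 libraries, each as log2(CPM + 0.5) minus the gene's mean over the libraries (blue, lower; red, higher), with genes as rows grouped by class and libraries as columns. WT libraries 1 and 2 and Mcl1 KO library 1 are low and Mcl1 KO libraries 2 and 3 are high for most genes. Scarna2 and Gm22009 differ less within genotypes than most of the genes.

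Among the box C/D genes, Snord3a, a gene of the U3 snoRNA (ENSMUSG00000106147), had 0.21, 0.74, and 1.55 CPM in WT, 0.79, 65.2, and 33.6 in Mcl1 KO, 23.6, 15.7, and 15.4 in Mcl1 Sting1 DKO, and 21.4, 19.1, and 1.95 in Sting1 KO libraries. Mcl1 KO library 1 lay within the WT range, and Sting1 KO library 3 lay just above it. Its log2 fold change between Mcl1 KO and WT was 5.34 (SE 1.32, adjusted p = 0.018). Snord118, the U8 snoRNA, had 0.08, 0.21, and 0.63 CPM in WT, 0.12, 7.47, and 8.76 in Mcl1 KO, 3.21, 2.56, and 2.52 in Mcl1 Sting1 DKO, and 3.38, 2.41, and 0.46 in Sting1 KO libraries. Mcl1 KO library 1 and Sting1 KO library 3 both lay within the WT range. Its log2 fold change was 4.19 (SE 1.19, adjusted p = 0.030). Snord17, in an intron of Snx5, and Snord22, in the noncoding RNA Snhg1, had log2 fold changes of 4.70 (SE 1.22) and 3.67 (SE 1.04) and passed the test as well.

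The other 20 of the 24 C/D genes tested did not pass it. Snord15b had 3.40, 4.83, and 17.1 CPM in WT and 7.80, 12.2, and 9.17 in Mcl1 KO libraries, with a log2 fold change of 0.20 (SE 0.47). Its highest value was that of WT library 3. Snord94 had a log2 fold change of 0.64 (SE 0.63) and Snord104 of 0.47 (SE 0.53). Snord14c, which overlaps an exon of Hspa8, had 0.59 to 1.42 CPM in WT and 0.77 to 1.32 CPM in Mcl1 KO libraries, and 0.63 to 1.10 CPM in the other 6 libraries, so it varied less than 3-fold over all 12.

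Of the 27 H/ACA genes tested, 8 rose in Mcl1 KO livers and none fell, beside the 20.2% of all tested genes that were called. Snora73a, a gene of the U17 snoRNA (ENSMUSG00000064387), had 9.89, 20.7, and 74.8 CPM in WT, 26.9, 361, and 176 in Mcl1 KO, 117, 87.6, and 92.6 in Mcl1 Sting1 DKO, and 122, 101, and 81.1 in Sting1 KO libraries, with a log2 fold change between Mcl1 KO and WT of 2.42 (SE 0.80, adjusted p = 0.052). Its neighbor Snora73b, 96.6% identical to it, had 2.17 (SE 0.83, adjusted p = 0.082), and Snora74a had 2.82 (SE 1.02, adjusted p = 0.070). None of these abundant genes passed the test, and WT library 3 was the highest WT library for each. Snora23 went from 0.03 CPM in each WT library to 0.12, 5.78, and 2.78 CPM in Mcl1 KO libraries and passed, with the largest log2 fold change of the 133 genes, 6.45 (SE 1.57, adjusted p = 0.015). It had 2.37, 2.10, and 1.97 CPM in Mcl1 Sting1 DKO and 3.72, 2.15, and 0.17 CPM in Sting1 KO libraries. Its WT values were 1 count per library, so that the fold change depends on the prior count of the fit. Snora78 had 7.20, 11.6, and 26.5 CPM in WT and 9.43, 47.2, and 26.8 in Mcl1 KO libraries, with a log2 fold change of 0.88 (SE 0.52, adjusted p = 0.24), and Snora7a and Snora70 had 1.60 (SE 0.80) and 1.77 (SE 0.78) without passing.

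The scaRNA genes included both genes that passed the test and genes that did not. Scarna10 had 7.78, 12.9, and 30.0 CPM in WT, 22.6, 392, and 275 in Mcl1 KO, 129, 108, and 123 in Mcl1 Sting1 DKO, and 67.6, 77.1, and 90.1 in Sting1 KO libraries, with a log2 fold change between Mcl1 KO and WT of 3.77 (SE 0.79, adjusted p = 0.0090). Scarna2 had 27.4, 23.0, and 34.8 CPM in WT and 47.6, 95.9, and 62.5 in Mcl1 KO libraries, all 3 above WT, with a log2 fold change of 1.27 (SE 0.26, adjusted p = 0.0076). It had 22.5 to 27.6 CPM in Mcl1 Sting1 DKO and 34.6 to 52.6 CPM in Sting1 KO libraries. Gm22009, in an intron of Kpna4, had 13.6 to 20.9 CPM in WT and 16.3 to 30.6 CPM in Mcl1 KO libraries, with a log2 fold change of 0.48 (SE 0.26, adjusted p = 0.20). Gm22442, in an intron of Chd3, had 32.2 to 62.3 CPM in WT and 21.0, 83.7, and 66.4 CPM in Mcl1 KO libraries, with a log2 fold change of 0.40 (SE 0.42, adjusted p = 0.52). The spread within genotypes, as the pooled SD of log2(CPM + 0.5), was 1.85 for Snord17, 1.81 for Snord3a, and 1.77 for Gm22973, the largest of 33 genes with a mean of at least 5 CPM, and it was 0.34 for Scarna2, 0.35 for Gm22009, and 0.56 for Gm23262, the smallest.

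Between Mcl1 KO and WT livers, the comparison that addresses the effect of the hepatocyte deletion, 30 of 133 tested genes rose and none fell at an adjusted p under 0.05. Of all 15070 tested genes, 20.2% were called, so that the share among the small RNA genes, 30 of 133, lay near the background. The direction differed from the background, since the log2 fold change was positive for 130 of the 133 genes with a median of 1.41, against a median of −0.0049 over all tested genes. The median of the 133 genes was 0.80 without Mcl1 KO library 2, 2.18 without WT library 3, and 2.13 with Y-linked expression as a covariate. By class, 9 of 19 snRNA, 4 of 24 C/D, 8 of 27 H/ACA, 4 of 12 scaRNA, and 5 of 51 other snoRNA genes rose, with median log2 fold changes of 2.52, 0.72, 2.17, 1.24, and 1.36. The groups did not overlap for 10 of the 133 genes, all higher in Mcl1 KO livers, whereas 16.2% of all tested genes were higher without overlap. The genes passed the minimum of 10 counts in 3 libraries on the same counts, although in no gene were the libraries at the minimum all of 1 genotype, and the 4 genes not tested were Gm26473, Gm24871, and the 2 entries named Snora43, which overlap and had the same count in every library.

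These calls moved with single libraries, as did those of all tested genes. Without Mcl1 KO library 1, 82 of the 133 genes rose, among them all 30, and 34.6% of all tested genes were called. Without Mcl1 KO library 2, 3 rose, with 8.28% of all tested genes called, and without Mcl1 KO library 3, which held the muscle markers, 13 rose, with 16.8% called. Leaving out WT library 1, 2, or 3 gave 8, 3, or 34 genes, with 17.8%, 8.14%, or 10.8% of all tested genes called, and 14 of the 34 were among the 30. No Mcl1 KO library expressed the Y-linked genes that WT libraries 2 and 3 did, and with Y-linked expression as a covariate, 11 rose, with 10.2% of all tested genes called. When the model was fitted to the WT and Mcl1 KO libraries alone, 2 rose, with 7.33% of all tested genes called.

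**Figure D3:**
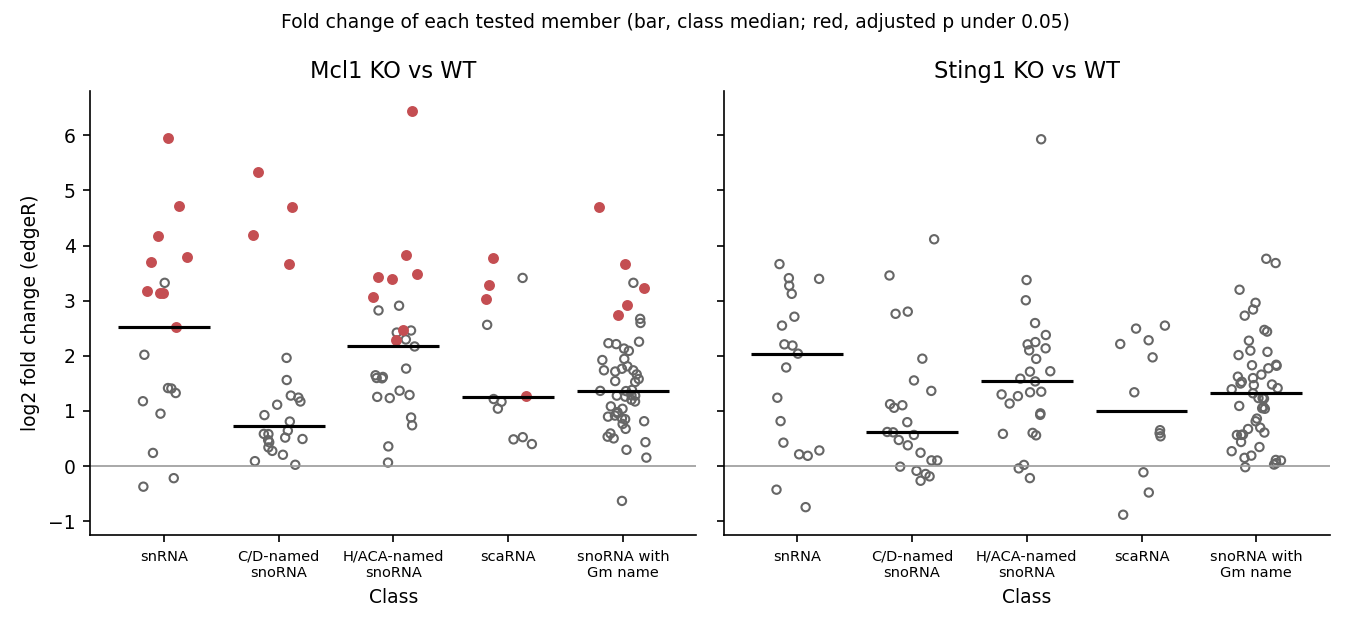
Log2 fold change from edgeR of each of the 133 tested genes by class, for Mcl1 KO against WT (left) and Sting1 KO against WT (right), with a bar at the class median and red points for an adjusted p under 0.05. Both panels lie mostly above 0, with medians of 1.41 and 1.30 over the 133 genes, and red points occur in the left panel only (30 genes).

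Between Sting1 KO and WT livers, no gene was called, with 0.0% of all tested genes called. At an unadjusted p under 0.05 were 48 of the 133 genes, against 5.45% of all tested genes. That count was 18, 19, or 76 without WT library 1, 2, or 3, with 8.31%, 2.85%, or 5.12% of all tested genes. It was 20 or 31 without Sting1 KO library 1 or 2, with 4.55% or 4.45% of all tested genes. DESeq2 called 4 of the 133, Gm25099, Snora23, Snora21, and Gm25776, all higher in Sting1 KO livers, and 0.325% of all tested genes. The median log2 fold change of the 133 genes was 1.30, against 0.0032 over all tested genes, and 2.07 with Y-linked expression as a covariate. With the level of other structured RNAs as a covariate, the median was 0.16, and 10 of the 133 genes had an unadjusted p under 0.05, against 11.3% of all tested genes. That level itself had a mean of 5480 unscaled CPM in Sting1 KO and 2036 in WT libraries. The 3 Sting1 KO libraries lay above the 3 WT libraries for 54 of the 133 genes and below them for none, whereas 7.06% of all tested genes were higher without overlap. Both this comparison and the one before it used the same WT libraries. The genes above WT without overlap included Gm22513, with a log2 fold change of 2.71 (SE 0.98, adjusted p = 0.81), Gm25939 with 2.21 (SE 0.92), Snord3a with 4.11 (SE 1.28), Snord17 with 3.46 (SE 1.17), Snora73a with 1.53 (SE 0.78), and Scarna10 with 2.21 (SE 0.74), of which none passed the test. Scarna2 had 0.54 (SE 0.25), Gm22442 0.59 (SE 0.43), and Gm22009 −0.11 (SE 0.26) in this comparison.

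The 3 Mcl1 Sting1 DKO livers addressed what the Sting1 knockout changes in Mcl1 KO livers. Against Mcl1 KO livers, no gene was called, with 0.0% of all tested genes called, and 13 of the 133 genes had an unadjusted p under 0.05, against 20.6% of all tested genes. That count was 57 without Mcl1 KO library 1, 3 without Mcl1 KO library 2, and 7 without Mcl1 Sting1 DKO library 3, with 35.0%, 9.73%, and 14.0% of all tested genes. The median log2 fold change of the 133 genes was −0.73. It was −1.12 without Mcl1 KO library 1 and −0.11 without Mcl1 KO library 2, where 58 of the 133 genes lay above 0, and its direction turned to 0.72 with the level of other structured RNAs as a covariate. All 3 Mcl1 Sting1 DKO libraries lay below all 3 Mcl1 KO libraries for 7 of the 133 genes, and 9.28% of all tested genes were lower without overlap. The 7 genes were Scarna2, Scarna17, Gm22009, Gm22579, Gm23455, Gm23119, and Gm24339. Scarna2 had a log2 fold change of −1.45 (SE 0.26, adjusted p = 0.13) and Gm22009 of −0.61 (SE 0.26, adjusted p = 0.22). DESeq2 called 2 genes, Scarna2 as lower and Gm25776 as higher, and 4.51% of all tested genes. Gm25776, in an intron of Gtf2a1, had 0.05, 0.21, and 0.03 CPM in WT, 0.25, 0.46, and 0.06 in Mcl1 KO, 1.57, 1.73, and 1.34 in Mcl1 Sting1 DKO, and 1.86, 1.94, and 0.34 in Sting1 KO libraries. Sting1 KO library 3 lay within the range of the Mcl1 KO libraries, and the other 5 livers labelled for the Sting1 knockout lay above all WT and Mcl1 KO libraries. Of the most variable genes, Gm22513 had a log2 fold change of −1.15 (SE 0.93) and Snord3a of −0.86 (SE 1.05). Without Mcl1 KO library 1, 19 of the 133 genes were called, all lower in Mcl1 Sting1 DKO livers, with 20.5% of all tested genes called.

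Against Sting1 KO livers, no gene was called in Mcl1 Sting1 DKO livers, against 0.803% of all tested genes, and 2 of the 133 genes, both scaRNA genes, had an unadjusted p under 0.05, against 11.3% of all tested genes. The median log2 fold change was −0.27. Those 2 genes were Scarna2 and Gm22442. The groups did not overlap for 21 genes that were lower and 2 that were higher in Mcl1 Sting1 DKO livers, Scarna10 and Gm24497, against 10.8% and 11.5% of all tested genes. All 3 Mcl1 Sting1 DKO values of Scarna10, 108 to 129 CPM, lay above the 67.6 to 90.1 CPM of the Sting1 KO libraries, with a log2 fold change of 0.62 (SE 0.71), and Gm22442 had −1.08 (SE 0.43, adjusted p = 0.35). The interaction, which compares the Mcl1 effect with and without the Sting1 label, called no gene, with 0.0% of all tested genes called. An unadjusted p under 0.05 was found for 55 of the 133 genes, against 14.4% of all tested genes. That count was 95 without Mcl1 KO library 1 and 17 without Mcl1 KO library 2, with 28.2% and 9.04% of all tested genes. It was 88 without WT library 3, with 1720 of 15070 tested genes. It was 27 to 36 without WT library 1 or 2, Mcl1 KO library 3, Mcl1 Sting1 DKO library 2 or 3, or Sting1 KO library 1. In these settings, 1396 to 2431 of 15070 tested genes had such a p. With the level of other structured RNAs as a covariate, it was 2 of the 133 genes and 970 of 15070 tested genes. DESeq2 called 2 genes, Scarna2 and Snora23, and 1.13% of all tested genes. The edgeR values were −1.99 (SE 0.36, adjusted p = 0.22) for Scarna2, −6.35 (SE 1.91, adjusted p = 0.27) for Snora23, and −3.86 (SE 1.34, adjusted p = 0.29) for Gm22513. Without Mcl1 KO library 1, 48 of the 133 genes were called, all with a smaller Mcl1 effect in livers labelled for the Sting1 knockout, with 10.7% of all tested genes called.

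Within genotypes, the small RNA genes differed more between livers than other genes did. The median SD of log2(CPM + 0.5) over the 3 libraries was 0.40 in WT, 0.79 in Mcl1 KO, 0.24 in Mcl1 Sting1 DKO, and 0.29 in Sting1 KO livers for the 133 genes, and 0.18, 0.28, 0.18, and 0.16 for all tested genes. These SDs are descriptions, since the set of genes was chosen with the spread between libraries of a genotype in view. Mcl1 KO library 1 was the lowest of its genotype for 118 of the 133 genes and for 34.6% of all tested genes, and Mcl1 KO library 2 was the highest for 117. WT library 3 was the highest of its genotype for 107 of the 133 genes. Mcl1 KO library 1 lay a median of 1.25 log2 units below the mean of the other two, with H/ACA genes at −1.92, snRNA genes at −1.32, and C/D genes at −0.89, and single genes from −5.64 for Snord17 to 0.40. Against the mean of the WT libraries, Mcl1 KO library 1 differed by a median of −0.11, and no gene lay more than 1 log2 unit above it.

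Sting1 KO library 3 differed from the others of its genotype in only part of the genes. The median difference was −0.22 over the 133 genes, with 21 genes more than 1 log2 unit below the mean of the other two libraries and 1 gene more than 1 unit above it. The 5 largest differences were −3.08 for Snord3a, −2.53 for the U2 copy Gm22973, −2.32 for Snora23, −2.24 for Snord17, and −1.98 for Gm24119, and Snord118 had −1.81. The 8 genes outside a same-strand gene, all snRNA genes, had a median of −1.34, and the scaRNA genes had −0.04. The same library had 36.5 CPM of Gm24265, 52.6 CPM of Scarna2, and 90.9 CPM of Gm22442, the last higher than in any other library.

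**Figure D4:**
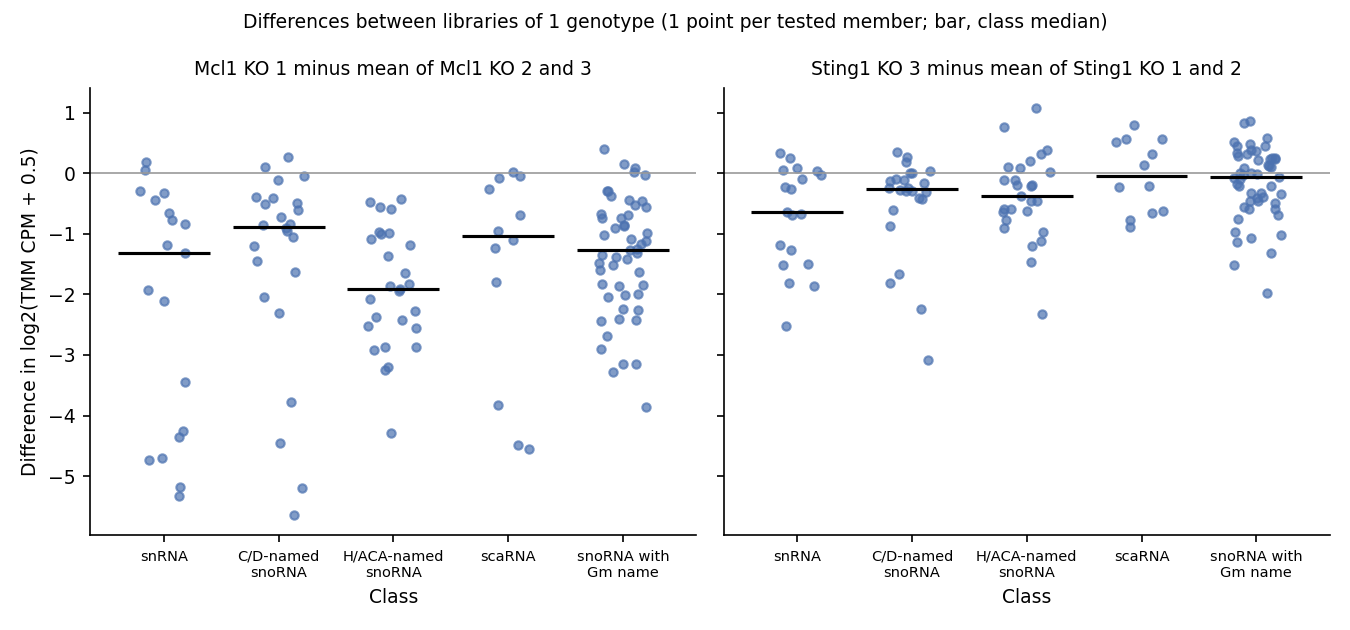
Difference in log2(CPM + 0.5) for each of the 133 tested genes by class, on the left between Mcl1 KO library 1 and the mean of Mcl1 KO libraries 2 and 3, and on the right between Sting1 KO library 3 and the mean of Sting1 KO libraries 1 and 2, with bars at class medians. On the left, all class medians lie below 0, from −0.89 to −1.92, and on the right, most genes lie near 0 and 21 lie below −1.

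Most of the genes lie inside other genes. A same-strand host gene was annotated for 129 of the 137, with 95 distinct hosts, of which 71 were protein coding and 24 noncoding. Of the 129, 50 lay in introns of every transcript of the host and 79 overlapped an exon of at least 1. The 84 hosts that could be tested had a median log2 fold change between Mcl1 KO and WT of 0.10, with 6 called higher and 6 lower, whereas the 110 tested genes within them had a median of 1.36, and 97 of the 110 lay above their host. For hosts without a small RNA gene over an exon, the median was −0.11 over 35 hosts and 1.45 over their 40 small RNA genes, 38 of which lay above the host. Between Sting1 KO and WT livers, these medians were −0.02 and 1.55, and 37 of 40 lay above the host. Snora23 rose while its host Ipo7, a nuclear import receptor, had a log2 fold change of −0.33 (SE 0.15, adjusted p = 0.13), and Snord17 rose by 4.70 while its host Snx5, a sorting nexin, rose by 0.56 (SE 0.14, adjusted p = 0.018). Chd3, a chromatin remodeler and host of Gm22442, fell by 1.36 on the log2 scale (SE 0.27, adjusted p = 0.0070).

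Where a small RNA gene overlaps an exon of its host, the counts of the host were mostly those of the small RNA in part of the pairs. Scarna10 accounted for counts equal to 64.0% to 99.4% of those of Ncapd2, a condensin subunit, and Ncapd2 was called higher in Mcl1 KO livers with a log2 fold change of 3.55 (SE 0.68). The Ncapd2 counts beyond those of Scarna10 were 124, 117, and 97 in WT and 613, 118, and 51 in Mcl1 KO libraries. Snora73a held counts equal to 88.7% to 99.6% of those of Snhg3, and the counts of Snhg3 beyond it were 25 to 93 per library. Snord22 held counts equal to 16.1% to 89.0% of those of Snhg1, and the remainder was 78 to 190 per library. Snora78 had 273 to 1542 counts per library, whereas Snhg9, an exon of which it overlaps, had 4 to 21. In all, 69 of the 137 genes overlapped an exon of another counted gene, and the median log2 fold change between Mcl1 KO and WT was 1.36 for the 65 of these that were tested and 1.58 for the other 68.

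**Figure D5:**
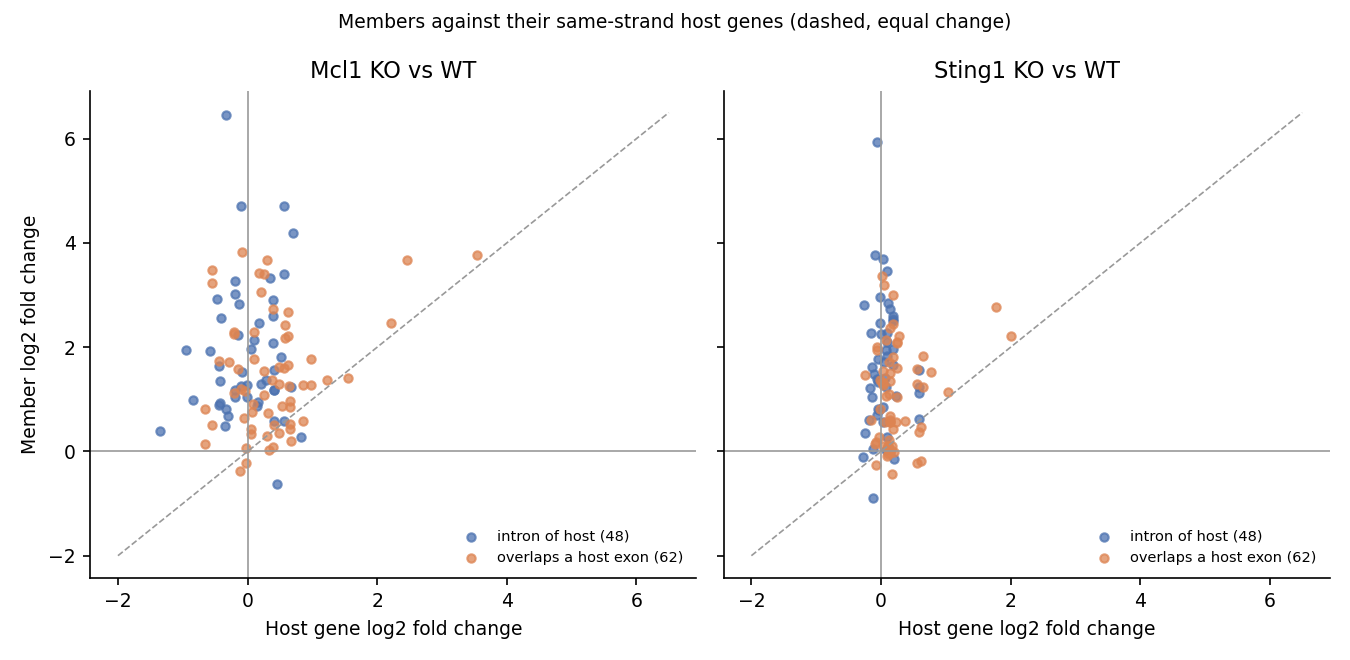
Log2 fold change of 110 small RNA genes (vertical) against that of their same-strand host genes (horizontal), for Mcl1 KO against WT (left) and Sting1 KO against WT (right), with 48 genes in introns in blue and 62 over a host exon in orange. Most points lie above the dashed line of equal change with hosts near 0, and the points at host values above 2 on the left include Scarna10 with Ncapd2 and Snord22 with Snhg1.

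The protein partners of these RNAs changed little beside them. Of 25 Sm and core snRNP protein genes, 3 rose (Snrpg, Snrpd1, and Snrnp25) and Prpf8, the central protein of the spliceosome, fell in Mcl1 KO livers, with a median log2 fold change of 0.14, where 20.2% of all tested genes were called. Snrpd1 had 1.01 (SE 0.30, adjusted p = 0.037) and Prpf8 had −0.80 (SE 0.20, adjusted p = 0.020). Of 10 LSm protein genes, Lsm3 and Lsm7 rose, with a median of 0.44. None of 17 snRNP assembly genes passed the test (median 0.08), and of 23 genes of snRNA transcription and 3′ end formation, Ints1 and Ints7, subunits of the Integrator complex, fell, with a median of −0.24. None of 11 box C/D snoRNP protein genes passed (median 0.33), and of 6 H/ACA snoRNP protein genes, Nhp2 rose with 0.76 (SE 0.23, adjusted p = 0.037; median 0.07). None of 17 genes of small RNA trimming and decay and neither of 2 Cajal body genes passed, with medians of 0.06 and 0.15. Of 27 entries for known snoRNA host genes, Snhg1, Snhg20, and Rian rose and Gas5 fell, with a median of 0.49. No gene of these lists was called in the comparisons of Mcl1 Sting1 DKO with Mcl1 KO, Mcl1 Sting1 DKO with Sting1 KO, or Sting1 KO with WT livers.

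Structured RNAs outside the 3 classes moved with the small RNA genes between livers. Rpph1, the RNA of RNase P, had 1300, 1328, and 2490 unscaled CPM in WT, 2172, 15627, and 9400 in Mcl1 KO, 3170, 2797, and 2759 in Mcl1 Sting1 DKO, and 2939, 3511, and 7151 in Sting1 KO libraries. Rmrp, the RNA of RNase MRP, had 203, 241, and 521 in WT, 319, 4085, and 1950 in Mcl1 KO, 913, 843, and 606 in Mcl1 Sting1 DKO, and 927, 1003, and 846 in Sting1 KO libraries. Mcl1 KO library 1 was the lowest of its genotype for both, as for the small RNA genes, whereas Sting1 KO library 3 was the highest of its genotype for Rpph1. Of 10 tested entries for such RNAs, of which 2 are Rmrp entries with the same counts, 8 rose in Mcl1 KO livers, with a median log2 fold change of 2.36. With the summed level of Rpph1, Rmrp, Terc, Rny1, Rny3, and Vaultrc5 as a covariate, 0 of the 133 genes rose between Mcl1 KO and WT livers. Under it, 2 fell, Gm22154 and Gm22442, the median log2 fold change was −0.42, and 3.31% of all tested genes were called. That level itself had means of 2036 unscaled CPM in WT and 11221 in Mcl1 KO libraries. Rpph1 made up most of it, with means of 1706 and 9066. A difference by genotype and a difference in that level therefore cannot be told apart in this fit. The counts on mitochondrial genes moved opposite to the small RNA genes. They had 5797 and 5653 unscaled CPM in Mcl1 KO libraries 2 and 3, 16338 in Mcl1 KO library 1, and 10454 to 14175 in the other 9 libraries. Macrophage markers summed to 847 to 1020 CPM in Mcl1 KO and 442 to 682 CPM in WT libraries, and Mcl1 KO library 1, at 901, lay between the other two. Neutrophil markers summed to 6.60, 18.8, and 7.53 CPM in Mcl1 KO libraries 1 to 3 and to 1.79 to 2.74 CPM in WT libraries, so that library 1 was the lowest and library 2 the highest of the genotype, as for most small RNA genes. Stellate cell and fibroblast markers summed to 731 to 787 CPM in Mcl1 KO and 295 to 480 CPM in WT libraries, and library 1 was again the lowest Mcl1 KO library and library 2 the highest. Erythroid markers had this order too, with 181, 627, and 582 CPM in Mcl1 KO libraries 1 to 3. Endothelial markers, at 303, 157, and 196 CPM, were highest in library 1 and lowest in library 2. The same held for hepatocyte markers, at 132562, 98434, and 108611 CPM. Lymphocyte and cholangiocyte markers were lowest in library 1 and highest in library 3. The part of the structured RNA, mitochondrial, and cell type marker levels in the differences of the small RNA genes was not tested.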

How the data were processed

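Total RNA was sequenced from 12 livers, and the authors deposited raw read counts per Ensembl gene, whole numbers without normalization. The submitters' processing notes name STAR, featureCounts, and GRCm39. Their versions, the annotation, the use of strand, and the handling of multi-mapping reads were not given in the sources used here. The extraction kit differs between the labels and the methods. No column of the authors' own comparisons was used. Gene classes, positions, and sequences came from GENCODE vM39 (GRCm39), which held 39533 of 40551 identifiers.

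Counts were scaled with TMM and tested in R 4.3.3 by the quasi-likelihood functions of edgeR 4.0.16 after its expression filter with genotype as the group, over all 12 libraries without covariates, with Benjamini-Hochberg adjustment over 15070 genes and a threshold of 0.05. The common dispersion was 0.0699. P-values rest on the spread between livers within genotypes, estimated over all genotypes together and not only over those compared. DESeq2 1.42.0, other scalings, filters, covariates, and leaving out each library were alternatives. The tests were checked on simulated counts for Mcl1 KO against WT, with independent genes of a single dispersion. This check does not cover differences between libraries that many genes share. No library pair of a genotype was a duplicate (chi-square divided by its degrees of freedom was at least 43.2). Summaries were made in Python 3.11.15 with pandas 2.3.3, and figures with matplotlib 3.10.9.

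The genes described and all gene lists were chosen with earlier results of these data known. Named genes are, by mean CPM, 8 snRNA, 6 C/D, 6 H/ACA, and 4 scaRNA genes, the 3 largest rises and falls among called genes with a mean of at least 1 CPM, and the 3 largest and 3 smallest spreads within genotypes among genes with a mean of at least 5 CPM. Snord118, Snord14c, Snora21, Rnu11, Rnu4atac, Rnu7, Gm22068, Gm25099, Gm25776, and the genes listed without fold changes were named after their values were seen. A snRNA gene was assigned to a family at 90% identity or more to a named gene. The named genes included U4atac but no gene of the major U4, so U4 genes stay without a family here.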

Additional observations from a re-analysis of the deposited data

How the results depend on the processing

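Between Mcl1 KO and WT livers, the count of 30 genes called higher was 30 under RLE scaling, TMM without these genes, a minimum of 10 counts in 3 libraries, and no filter by genotype. Of all tested genes, 3053 of 15070, 3047 of 15070, 3048 of 15113, and 2620 of 24525 were called under these settings, in this order. The count was 50 with DESeq2, which called 3884 of 15070 tested genes. It was 2 with the 2 groups alone and 11 with Y-linked expression as a covariate, with 7.33% and 10.2% of all tested genes called. When each library was left out, it was 3 to 82, with 8.14% or 8.28% of all tested genes called for the 3 and 34.6% for the 82. With the other structured RNAs as a covariate, 2 genes were called, both lower, with 3.31% of all tested genes called, so that the direction reversed. The mean level of these RNAs was itself higher in Mcl1 KO than in WT livers, so this fit cannot tell the genotype from their level. DESeq2 called 2 genes between Mcl1 Sting1 DKO and Mcl1 KO livers, 4 between Sting1 KO and WT livers, and 2 in the interaction, against 0 in edgeR. The covariate gave 1 gene, Scarna10, between Mcl1 Sting1 DKO and Sting1 KO livers, against 0, with 87 of 15070 tested genes called. Leaving out each library gave 0 to 19 genes between Mcl1 Sting1 DKO and Mcl1 KO livers and 0 to 48 in the interaction, and 0 in the other comparisons. The causes were not tested.

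The deviations of libraries with the same number correlated between −0.587 and 0.324 and exceeded 0.1 in 3 of 18 pairs. Those with different numbers correlated between −0.249 and 0.486 and exceeded 0.1 in 7 of 36 pairs. Between Mcl1 Sting1 DKO and Sting1 KO libraries, same-number pairs had 0.0733, 0.324, and 0.230. Pairs with different numbers had −0.241 to 0.0097 there. These values do not decide whether the numbers mark a pairing. With the replicate number as a block, 14 genes were called between Mcl1 KO and WT livers, with 2591 of 15070 tested genes called. Of the 14, 13 were among the 30, and 0 genes were called in each other comparison.

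Without the genes that hold over 1% of the counts, the share of all counts was 0.0097% in WT, 0.0326% in Mcl1 KO, 0.0194% in Mcl1 Sting1 DKO, and 0.0221% in Sting1 KO libraries. Without genes that overlap another exon, it was 0.0413% in Mcl1 Sting1 DKO and 0.0451% in Sting1 KO libraries. Leaving out each library moved the mean share between 0.0227% and 0.0452% in WT, 0.124% and 0.300% in Mcl1 KO, 0.0926% and 0.107% in Mcl1 Sting1 DKO, and 0.101% and 0.112% in Sting1 KO libraries.

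With the other structured RNAs as a covariate, log2 fold changes between Mcl1 KO and WT reversed to −0.49 for Gm22513, −0.70 for Gm25939, −0.58 for Gm24265, −0.90 for Gm24407, −0.15 for Snord17, −0.081 for Snord22, −0.36 for Snord15b, −1.35 for Snord94, −1.10 for Snord104, −0.31 for Snora73a, −0.72 for Snora73b, −0.94 for Snora74a, −0.84 for Snora78, −1.01 for Snora7a, −1.24 for Snora70, −1.16 for Gm22442, −0.0019 for Gm23262, and −0.29 for Snord14c. Under the same covariate they reversed to 1.93 for Gm22513 and 2.39 for Snord3a between Mcl1 Sting1 DKO and Mcl1 KO. They reversed to −0.31 for Snord104, −0.13 for Snora73b, −0.45 for Snora78, and −0.45 for Gm22442 between Sting1 KO and WT. In the interaction, the value of Gm22513 reversed to 1.13. Since the covariate itself differed with genotype, these values do not tell the genotype from its level. Over the left-out libraries, the log2 fold change of Snord15b between Mcl1 KO and WT ranged from −0.18 to 1.24 (−0.18 without WT library 1 and −0.076 without WT library 2), and that of Rnu7 from −0.54 to 0.25 (0.25 without WT library 2 and 0.090 without Mcl1 KO library 2). That of Snord3a between Mcl1 Sting1 DKO and Mcl1 KO ranged from −1.44 to 0.092 (without Mcl1 KO library 2), and that of Gm22009 between Sting1 KO and WT from −0.30 to 0.10 (0.089 without WT library 1 and 0.10 without Sting1 KO library 1).

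At 28826367 to 45266387 counts per library, genes such as Rnu7 and Snora62 had under 30 counts in each library, so that counting error adds to the spread between livers.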
